A study of Arabidopsis thaliana with 48 samples.

Results

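The transcripts described here belong to 9 Arabidopsis genes of jasmonate and ethylene defence: the plant defensins PDF1.1 (AT1G75830), PDF1.2A (AT5G44420), PDF1.2B (AT2G26020), PDF1.2C (AT5G44430) and PDF1.3 (AT2G26010), the pathogenesis-related genes PR3 (AT3G12500) and PR4 (AT3G04720), and the transcription factor genes ERF1 (AT3G23240) and ORA59 (AT1G06160). They are 9 of the 32833 genes in the table of normalised read counts, and they were chosen by name with their levels in these libraries already known, so what follows on them is a description of those levels. RNA was sequenced from seedlings of wild-type Arabidopsis thaliana, accession Col-0, in a control and 15 treatments, with 3 biological replicates each and 48 libraries in all. No group carried a mutation or a transgene. The control seedlings were kept at 21 °C under light of 50 µmol m-2 s-1. Groups labelled Salt grew from sowing on medium with 50 mM NaCl, and groups labelled PQ on medium with 0.05 µM paraquat, a herbicide that generates reactive oxygen species in the light. Groups labelled HL (high light) were exposed to 700 µmol m-2 s-1 and groups labelled HS (heat stress) to 33 °C, each for 1.5 h at 10 days, and a label with several names stands for those stresses together. A normalised count is the reads on a gene divided by a library-wide size factor, so it is not scaled to gene length.

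Jasmonate and ethylene act together in defence of Arabidopsis against necrotrophic fungi. ORA59 and ERF1 are ethylene response factors that bind the GCC box in target promoters, and PDF1.2, PR3 (a basic chitinase) and PR4 (a hevein-like protein) are the usual markers of that output. A second jasmonate branch, run by the transcription factor MYC2 and marked by VSP1 and VSP2, is associated with wounding and insect feeding and counteracts the first, and salicylic acid, marked by PR1, PR2 and PR5, is known to repress PDF1.2.

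The libraries held 67888254 to 87569857 reads on genes each, and 9 of the 9 genes were above the mean of 10 normalised counts required for testing. Several groups went against their labels in marker genes of heat, light and salt. Summed over 9 heat-shock marker genes, the control held 7693 normalised counts, and the groups labelled PQ + HL + HS and Salt + PQ + HL + HS, both labelled with heat, held 8331 and 6736. Conversely, 6 of the 7 treatment groups not labelled with heat held more than 10 times the control, from 308400 in Salt + HL to 1783000 in PQ. Summed over 3 light-induced genes (ELIP1, ELIP2 and APX2), the groups labelled Salt + HL, PQ + HL and Salt + PQ + HL held 1524, 2364 and 1811, close to the control at 1931. Salt, with no high light in its label, held 18810, and PQ + HS and Salt + PQ + HS, also without it, 65110 and 81460. The heat sums of PQ + HS and Salt + PQ + HS were high as well, at 6772000 and 8873000. Whether the light-induced genes followed light or heat was not tested. Summed over 4 salt-induced genes (RD29A, RD29B, RAB18 and P5CS1), the control held 33970, and Salt + HL, Salt + HS and Salt + PQ + HL, all labelled with salt, held less, at 19580, 28980 and 28370. PQ and HL, not labelled with salt, held 104500 and 92470, both above Salt at 74090. The group names below are therefore those of the labels, and no value is read as the effect of a named stress. The markers of seedling tissue were present: 6 of 6 leaf genes and 7 of 8 root genes were above 3 reads in every library.

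**Figure D1:**
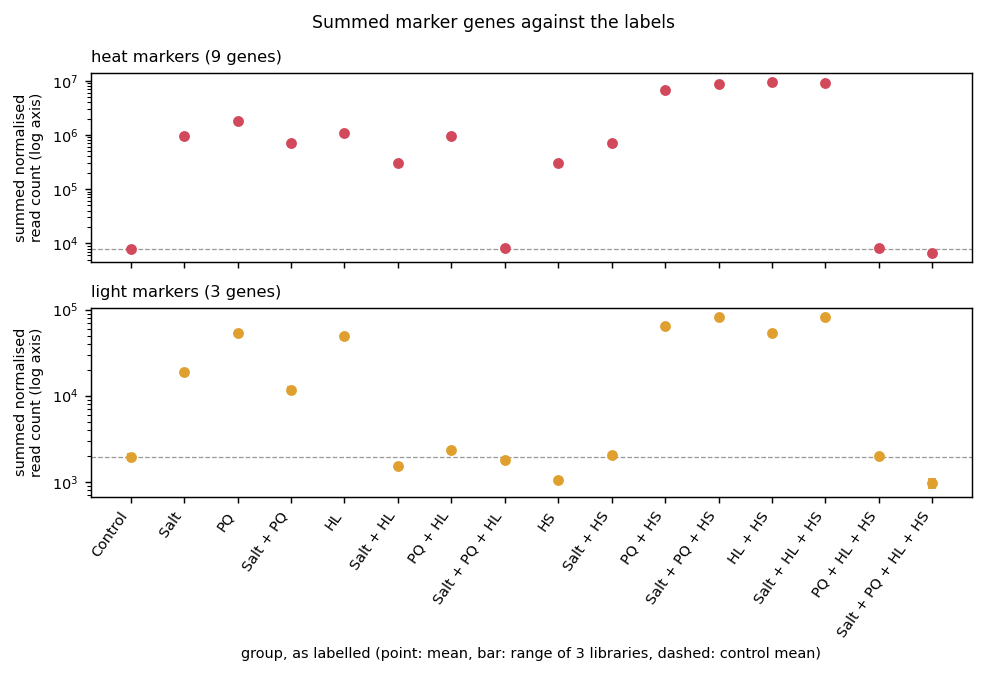
Summed normalised read counts of 9 heat-shock genes (top) and 3 light-induced genes (bottom) in the 16 groups, on log axes; points are means, bars the range of 3 libraries and dashed lines the control mean. The heat genes of the groups labelled PQ + HL + HS and Salt + PQ + HL + HS lay near the control line.

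The defensin genes were first compared as sequences, since copies this alike can share reads. In the TAIR10.1 assembly of RefSeq, PDF1.2A (5:17906968-17907638, minus strand) and PDF1.2C (5:17908850-17909507, minus strand) are neighbours on chromosome 5 with 1211 bases and 0 annotated genes between them. PDF1.3 (2:11087280-11088001, plus strand) and PDF1.2B (2:11089123-11089805, plus strand) form a second such pair on chromosome 2, with 1121 bases between them. PDF1.1 stands alone on chromosome 1 (1:28472357-28472898, plus strand). Each has 2 exons and 243 coding bases for 80 residues. Among PDF1.2A, PDF1.2B, PDF1.2C and PDF1.3 the coding sequences were 91.4 to 94.7% identical and the proteins 91.3 to 96.3%, and PDF1.1 shared 87.2 to 90.5% of coding bases and 81.3 to 86.3% of residues with them. The closest proteins were those of PDF1.2C and PDF1.3, which lie in different pairs. The spliced coding sequences of PDF1.2A, of PDF1.3 and of PDF1.1 show the differences, with capitals at each base that is not the base of PDF1.2A at that position, 21 in PDF1.3 and 30 in PDF1.1.
PDF1.2A coding: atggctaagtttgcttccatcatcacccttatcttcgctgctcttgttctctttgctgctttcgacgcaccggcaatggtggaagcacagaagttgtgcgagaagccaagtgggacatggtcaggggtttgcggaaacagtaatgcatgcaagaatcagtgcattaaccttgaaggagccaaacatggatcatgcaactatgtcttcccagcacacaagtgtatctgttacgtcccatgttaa
PDF1.3 coding: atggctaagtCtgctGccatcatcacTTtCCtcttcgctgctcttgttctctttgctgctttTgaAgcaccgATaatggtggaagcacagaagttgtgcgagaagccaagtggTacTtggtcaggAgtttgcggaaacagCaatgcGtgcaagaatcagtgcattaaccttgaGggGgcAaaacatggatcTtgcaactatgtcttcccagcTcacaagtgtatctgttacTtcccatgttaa
PDF1.1 coding: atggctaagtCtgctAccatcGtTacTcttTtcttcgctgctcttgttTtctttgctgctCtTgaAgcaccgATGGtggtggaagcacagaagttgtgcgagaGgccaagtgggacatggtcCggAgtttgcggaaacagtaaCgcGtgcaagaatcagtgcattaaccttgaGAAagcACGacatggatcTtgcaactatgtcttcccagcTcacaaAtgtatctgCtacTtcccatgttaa

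Of all words of 50 bases in the spliced transcripts, 95 to 100% occurred at most once in the genome for each of these 5 genes. Words across an exon junction, which the genome need not hold, are counted among these. Only exact matches were searched, so the share of reads with 1 place to map was not tested. Reads with several mapping places were kept in the alignment up to the default limit of STAR, and whether they entered the gene counts is not given in the sources used here.

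Since ORA59 and ERF1 are known to bind the GCC box, the 300 bases before each annotated gene start were searched on both strands for GCCGCC (the GCC box), CACGTG (a G-box) and TGACG (the core of a TGA factor site). Of 27443 protein-coding genes, 2.26% held GCCGCC in that window, 7.09% CACGTG and 21.3% TGACG. PDF1.2A and PDF1.2B each held 1 GCCGCC, 222 to 217 and 143 to 138 bases before the gene start, and none of the other 2 motifs. Neither PDF1.2C nor PDF1.3, the partner of each in its pair, held any of the 3, which says only that these letters are not in this window. ORA59 held all 3, with GCCGCC 230 to 225 bases before its start, TGACG on the other strand at 221 to 217 and CACGTG at 194 to 189. PR3 held 1 TGACG, and PDF1.1, PR4 and ERF1 held no match. No 2 matches overlapped. A match is a run of letters, and whether it is bound by a factor was not tested. The windows of the 4 paired defensin genes and of ORA59 follow, in the direction of transcription and with the matches in capitals.
PDF1.2A, chr5:17907639-17907938, minus strand: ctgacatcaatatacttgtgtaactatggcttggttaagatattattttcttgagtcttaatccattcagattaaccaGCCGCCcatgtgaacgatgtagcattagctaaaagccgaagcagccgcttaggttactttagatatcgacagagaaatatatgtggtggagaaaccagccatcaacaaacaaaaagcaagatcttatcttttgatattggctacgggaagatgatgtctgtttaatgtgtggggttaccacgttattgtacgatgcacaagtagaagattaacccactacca
PDF1.2C, chr5:17909508-17909807, minus strand: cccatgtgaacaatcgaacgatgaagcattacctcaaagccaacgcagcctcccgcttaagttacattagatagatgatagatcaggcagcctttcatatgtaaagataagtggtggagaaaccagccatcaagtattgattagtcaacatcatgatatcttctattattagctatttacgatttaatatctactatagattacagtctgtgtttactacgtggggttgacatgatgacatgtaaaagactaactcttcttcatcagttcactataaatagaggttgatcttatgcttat
PDF1.2B, chr2:11088823-11089122, plus strand: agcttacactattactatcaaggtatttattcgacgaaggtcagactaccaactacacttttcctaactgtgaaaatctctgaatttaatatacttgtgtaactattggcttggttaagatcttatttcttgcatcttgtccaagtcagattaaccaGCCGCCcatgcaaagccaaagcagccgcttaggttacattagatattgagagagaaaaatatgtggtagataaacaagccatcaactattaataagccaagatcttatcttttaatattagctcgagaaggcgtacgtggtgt
PDF1.3, chr2:11086980-11087279, plus strand: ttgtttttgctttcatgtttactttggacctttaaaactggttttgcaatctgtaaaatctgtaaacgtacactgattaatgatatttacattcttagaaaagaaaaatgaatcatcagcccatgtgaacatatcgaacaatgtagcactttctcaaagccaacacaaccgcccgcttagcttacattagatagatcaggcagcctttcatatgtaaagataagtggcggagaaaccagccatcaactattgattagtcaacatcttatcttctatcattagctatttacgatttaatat
ORA59, chr1:1882607-1882906, plus strand: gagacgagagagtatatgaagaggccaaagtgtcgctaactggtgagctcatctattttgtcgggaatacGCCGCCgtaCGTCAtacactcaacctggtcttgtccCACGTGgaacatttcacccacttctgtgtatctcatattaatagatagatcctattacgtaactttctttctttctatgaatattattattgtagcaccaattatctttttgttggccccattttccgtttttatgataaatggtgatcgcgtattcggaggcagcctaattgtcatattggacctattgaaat

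PDF1.2A, PDF1.2B, PDF1.2C and PDF1.3, which encode small secreted antifungal peptides, varied together over the 16 groups. The part of the GCCGCC matches in their levels was not tested. In the control libraries PDF1.2A stood at 7.19, 4.86 and 19.1 normalised counts, and in the libraries labelled Salt at 655, 536 and 647. PDF1.2B stood at 2.397, 0.8103 and 3.99 in the control and at 217, 224 and 163 in Salt. PDF1.2C, on 0 to 6 reads per control library, stood at 0, 2.43 and 4.78 in the control and at 522, 497 and 507 in Salt. PDF1.2B and PDF1.2C were thus near the detection floor of 3 reads in the control, the 3 genes held at least 200 reads in each Salt library, and the 2 groups did not overlap. PDF1.3 began from a somewhat higher level, with 19.98, 5.67 and 28.7 in the control and 1028, 903 and 984 in Salt. On the log2(value + 1) scale, which understates the change of such low genes, Salt exceeded the control by 5.95 ± 0.41 (SE, n = 3 against 3) for PDF1.2A, 6.00 ± 0.46 for PDF1.2B, 7.56 ± 0.53 for PDF1.2C and 5.92 ± 0.32 for PDF1.3. In these whole-seedling libraries, a change in the number of cells that express a gene and a change in RNA per cell cannot be told apart.

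**Figure D2:**
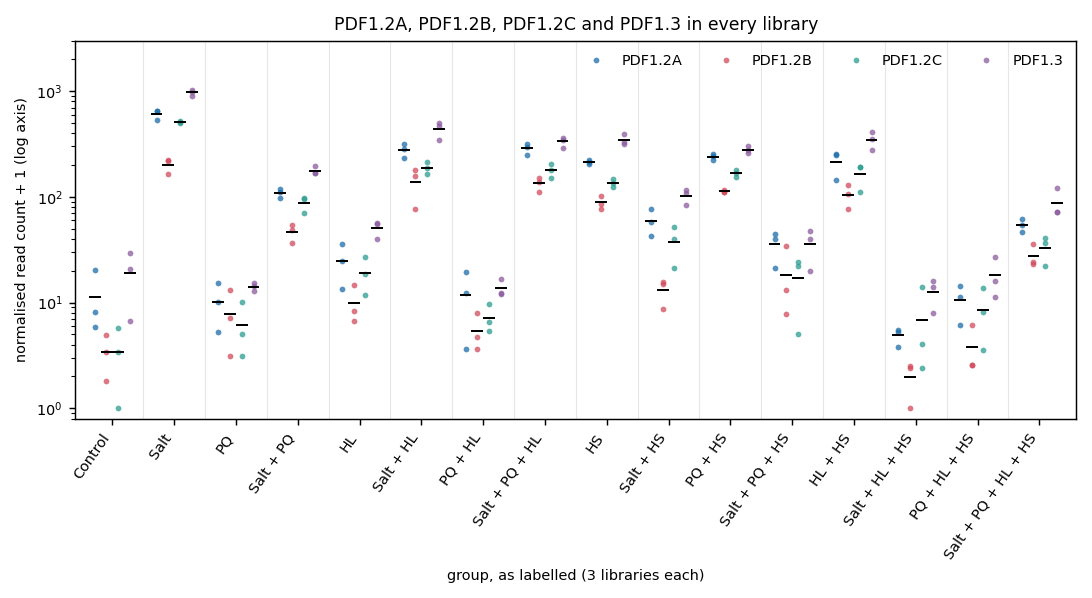
Normalised read count plus 1 (log axis) of PDF1.2A, PDF1.2B, PDF1.2C and PDF1.3 in each of 48 libraries, by labelled group; points are libraries and black lines group means. The 4 genes stand highest in Salt and share a band of high groups (Salt + HL, Salt + PQ + HL, HS, PQ + HS and HL + HS). They lie far below that band in PQ, PQ + HL, PQ + HL + HS and Salt + HL + HS.

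Below Salt came a tier of 5 groups whose neighbours in the order overlapped. For PDF1.2A the means were 287 ± 34.1 (SD, n = 3) in Salt + PQ + HL, 277 ± 40.9 in Salt + HL, 239 ± 15.6 in PQ + HS, 215 ± 62.99 in HL + HS and 213 ± 8.23 in HS. The libraries of that tier held 250.4, 294 and 317 in Salt + PQ + HL and 204, 214 and 220.4 in HS, each far above the control libraries. In HL + HS, 254, 248 and 142 were counted, the widest spread of the tier, with replicate 3 the lowest. In normalised counts Salt + PQ stood apart below the tier, at 96.8, 111 and 118. Its gap to HL + HS depends on the size factors. These were 0.594 to 0.655 in HL + HS and 1.028 to 1.096 in Salt + PQ. Before division by them, HL + HS held 93 to 156 reads of PDF1.2A per library and Salt + PQ 106 to 125, which overlap. In normalised counts, Salt + HS followed at 57.4, 41.9 and 75.2 and overlapped the group with 4 stresses, at 52.7, 45.98 and 60.8. The mean of Salt + HS was thus 58.2, against 612 in Salt and 213 in HS: the group labelled with both names was below each group labelled with 1 of them.

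For PDF1.2A the lowest groups lay at or under the control. PDF1.2A held 9.15, 14.2 and 4.31 in PQ, 2.64, 18.6 and 11.2 in PQ + HL and 10.3, 5.19 and 13.5 in PQ + HL + HS, all overlapping the control. In Salt + HL + HS it held 4.54, 2.81 and 4.33, from 2 to 3 reads per library, and each of these libraries was below each control library. PDF1.2B came to 0 to 1 reads per library there. PDF1.2C did not follow PDF1.2A below the control, at 3.02, 1.403 and 12.98, but at 1 to 9 reads per library the depth does not separate it from the control. The control had the lowest group mean of PDF1.2C, at 2.405. On the log2 scale the mean of PDF1.2C exceeded it by 1.37 ± 0.53 in PQ + HL, on 5 to 10 reads per library. In PQ + HL + HS the mean exceeded it by 1.45 ± 0.53, on 3 to 16 reads per library. PDF1.2B exceeded its control by 1.09 ± 0.46 in PQ, on 2 to 12 reads per library. Each of these differences had an adjusted p under 0.05 in limma, but in each the libraries overlapped those of the control. That of PDF1.2B in PQ changed sign, to -0.0815, with quantile normalisation. Between the highest and the lowest group mean lay a ratio of 157.5 for PDF1.2A and 83.0 for PDF1.3. For PDF1.3 the lowest group was again Salt + HL + HS, at 15.1, 7.02 and 12.98, and its tier of high groups held means from 279 in PQ + HS to 435 in Salt + HL.

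Over the 16 group means on the log2 scale, the 6 pairs among PDF1.2A, PDF1.2B, PDF1.2C and PDF1.3 had Pearson correlations of 0.97 to 0.99. These points share libraries, and the genes share most of their coding sequence, so the values are a description. Replicates of a group also moved together: in the 24 libraries of the 8 groups with high means (at least 20 for each of the 4 genes), the deviations of the 4 genes from their group means were correlated at 0.49 to 0.86. Over all 48 libraries, where many groups held few reads, those correlations were 0.02 to 0.61. In the same 24 libraries, the 4 genes were also correlated with PDF1.1 at 0.29 to 0.55 and with PR3 and PR4 at 0.14 to 0.64, so deviations of replicates were not shared by the 4 alone. The replicates of PDF1.2A differed by a median coefficient of variation of 26.5%, and those of PR4, the most abundant of the 9, by 4.95%.

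The difference that accompanied each label was then taken in its 8 backgrounds, that is, in the pairs of groups whose labels differ by that name alone. With Salt added to the label, PDF1.2A, PDF1.2B, PDF1.2C and PDF1.3 each had every library above those of the background in 5 backgrounds and every library below in 3, with 0 overlaps. The backgrounds where they were lower were HS, PQ + HS and HL + HS. For PDF1.2A the log2 difference was 4.91 ± 0.41 for Salt added to PQ + HL and -5.43 ± 0.41 for Salt added to HL + HS. With HS added, PDF1.2A was above its background in 3 and below it in 4, from 4.68 ± 0.41 on PQ to -5.84 ± 0.41 on Salt + HL. No label went with 1 direction for these genes. The share of all tested genes separated in this way was not computed, so the counts only describe these genes and do not set them apart. PQ and HL names went with lower or overlapping libraries in most backgrounds, and their lowest differences over the 4 genes were those of PDF1.2B, at -5.03 ± 0.46 for HL added to PQ + HS and -4.88 ± 0.46 for PQ added to HL + HS.

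Tissue and clock markers differed between groups as well. The sum of 8 root markers ran from 53130 normalised counts in HL + HS to 266900 in PQ + HL + HS, with the control at 190900 and Salt at 106500. The sum of 6 leaf markers ran from 2007000 in Salt + HL to 3678000 in HL + HS, and that of 8 seed markers from 949 in Salt + PQ + HL to 4238 in HL + HS. The sum of 9 genes of the circadian clock was lowest in the control, at 32940, and stood at 88500 in Salt and 89700 in PQ, where PDF1.2A was at the control level. In Salt + PQ + HL, of the high tier of PDF1.2A, it was 35100. The part of these markers and of the salt-induced genes in the levels of the defensin genes was not tested.

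PDF1.1, the defensin with the least alike coding sequence, did not follow the others. Its libraries held 221, 159.6 and 159 normalised counts in the control, 80.2, 102 and 110.3 in Salt and 62.01, 68.1 and 74.3 in PQ. Salt and PQ libraries thus all lay below the control libraries, where the other 4 defensins were far higher in Salt. The highest group was HL, at 206, 242 and 344, which overlapped the control. Group means ran from 68.2 ± 6.13 (SD, n = 3) to 264 ± 71.8, and each of the 15 steps in their order was between groups that overlapped. Against the control the log2 difference was -0.87 ± 0.27 in Salt, -1.38 ± 0.27 in PQ, -1.19 ± 0.27 in Salt + PQ + HL + HS and 0.53 ± 0.27 in HL. The correlations of its group means with those of the other defensins lay between -0.18 and -0.08 over the 16 groups.

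PR3 and PR4, whose proteins cleave or bind chitin of fungal walls, were abundant in every group and varied over a narrower range, 3.70-fold and 3.33-fold between the highest and lowest group means. PR3 stood at 1015, 1013 and 1119 in the control libraries and at 2830.3, 2431 and 2450.4 in HL, its highest group. It was also above the control in PQ (2177, 2077 and 2151) and in Salt + HS (1617, 1927 and 2105). These groups do not overlap the control, and PQ is one in which PDF1.2A stayed at the control level. In Salt + PQ + HL + HS, PR3 was lowest, at 662, 675 and 747. The log2 differences from the control were 1.29 ± 0.08 in HL, 1.03 ± 0.08 in PQ, 0.59 ± 0.08 in Salt and -0.59 ± 0.08 in Salt + PQ + HL + HS. In PQ + HS and Salt + HL + HS the values were 0.25 ± 0.08 and 0.25 ± 0.08, and both changed sign, to -0.40 and -0.58, when the libraries were scaled to the same total. PR3 (3:3962136-3963984, minus strand) overlaps the noncoding gene AT3G12502 on the other strand. Since the sources used here do not say whether reads were counted by strand, the share of PR3 reads set aside is unknown, and AT3G12502 itself held 0 to 5.44 normalised counts.

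PR4 (3:1285425-1286760, minus strand) had the highest counts of the 9 genes. It stood at 4442, 4240.1 and 4665 in the control, 8552, 7691 and 8284 in HL, 7873, 7694 and 7764 in PQ and 7400, 7844 and 7276 in Salt. The latter 3 groups were all above the control, and HL, PQ, PQ + HL, Salt + HS and Salt formed a run of overlapping neighbours at the top of the order. At the other end, HL + HS held 2589, 2629 and 2154 and Salt + HL + HS 2731, 2609.8 and 3520.1, below each control library. HL + HS is in the high tier of PDF1.2A, so PR4 and PDF1.2A lay on opposite sides of the control there. The log2 difference of PR4 was 0.88 ± 0.07 in HL and -0.86 ± 0.07 in HL + HS. PR3 and PR4 had a correlation of 0.71 over the 16 group means and of 0.73 in the deviations of the 48 libraries, and their correlations with the 4 similar defensins lay between -0.31 and 0.00.

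**Figure D3:**
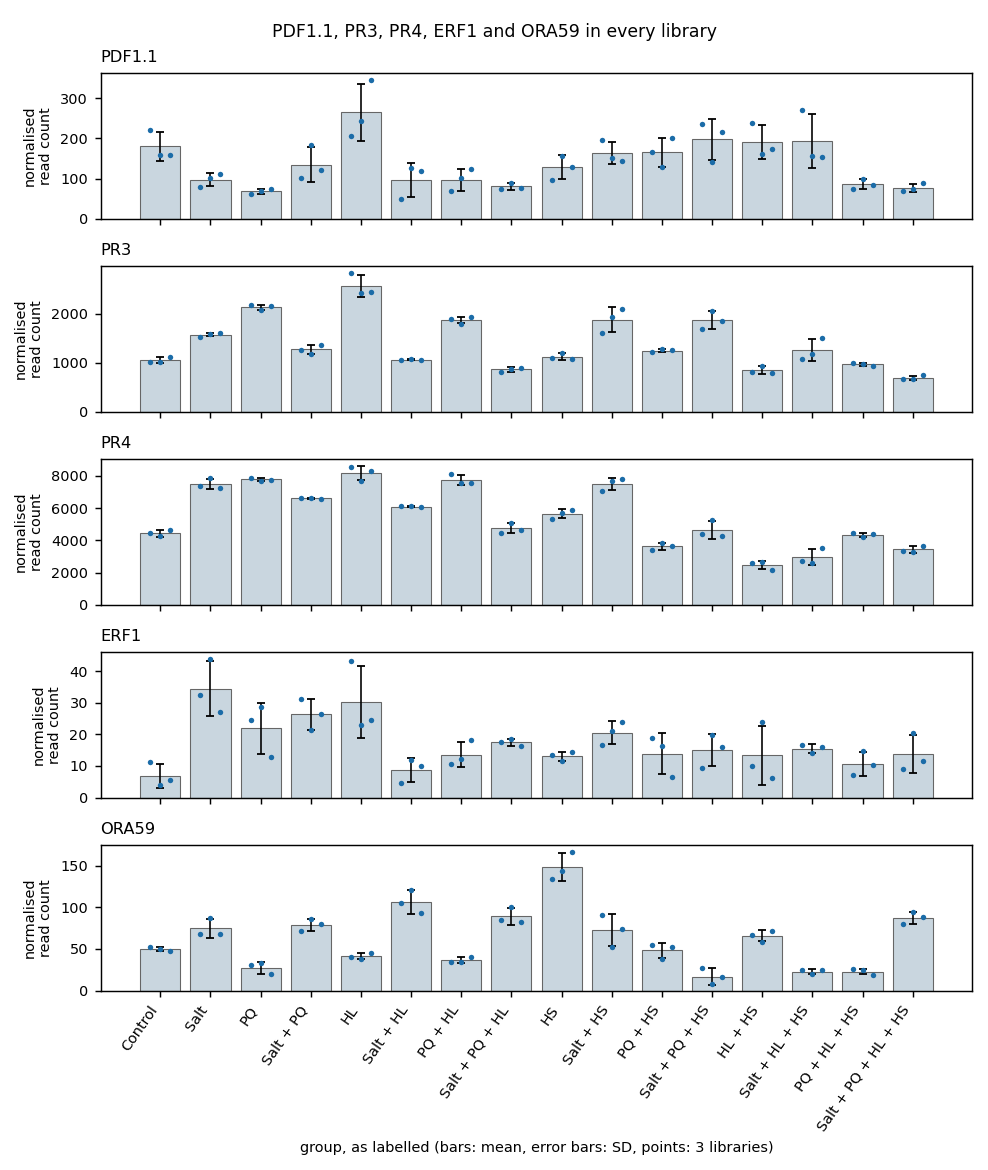
Normalised read counts of PDF1.1, PR3, PR4, ERF1 and ORA59 in the 16 labelled groups; bars are means, error bars SD and points the 3 libraries. PR3 and PR4 are highest in HL, ERF1 in Salt and ORA59 in HS, and the PDF1.1 groups overlap along their order.

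ERF1 (3:8295617-8296604, plus strand), an EIN3 target that links ethylene to defence genes, was sparse, with 4 to 49 reads per library. It stood at 11.2, 4.05 and 5.58 in the control and at 32.5, 43.8 and 26.96 in Salt. HL held 43.2, 22.9 and 24.5 and Salt + PQ 31.03, 21.4 and 26.4. All libraries of these 3 groups were above the control, but each of the 15 steps in the order of ERF1 groups was between groups that overlapped. The log2 difference was 2.23 ± 0.40 in Salt, 2.02 ± 0.40 in HL and 0.33 ± 0.40 in Salt + HL, where PDF1.2A was high. Its correlations with the 4 similar defensins over group means were 0.18 to 0.27.

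ORA59 (1:1882907-1883992, plus strand), the ERF regarded as the main integrator of jasmonate and ethylene at PDF1.2, was closer than ERF1 to the similar defensins in its group means. It stood at 52.7, 49.4 and 47.8 in the control and at 135, 143 and 167 in HS, its highest group. Salt + HL held 105, 121 and 93.02 and Salt 68.02, 87.7 and 68.6, again above each control library. Salt, the top group of the defensins, was thus only sixth in the order of ORA59. Salt + PQ + HS was lowest, at 27.2, 7.56 and 15.96, and PQ (30.5, 32.5 and 19.4), Salt + HL + HS (24.2, 19.6 and 24.5) and PQ + HL + HS (25.4, 24.2 and 19.02) were also below the control. The log2 difference was 1.54 ± 0.24 in HS, 1.07 ± 0.24 in Salt + HL and -1.67 ± 0.24 in Salt + PQ + HS. Over the 16 group means ORA59 was correlated at 0.70 to 0.77 with PDF1.2A, PDF1.2B, PDF1.2C and PDF1.3. In deviations of replicates over all libraries those correlations were -0.28 to 0.14, against 0.11 to 0.43 for ERF1 with the same genes. The correlation between ERF1 and ORA59 over group means was 0.01.

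A Salt x HS difference, the Salt difference with HS in the label minus that without, described the shared pattern of the 4 similar defensins most directly. It was -7.84 ± 0.58 for PDF1.2A, -8.80 ± 0.64 for PDF1.2B, -9.49 ± 0.75 for PDF1.2C and -7.68 ± 0.46 for PDF1.3. For ORA59 it was -1.62 ± 0.34, for ERF1 -1.62 ± 0.57, for PR4 -0.34 ± 0.10 and for PR3 0.14 ± 0.12. PDF1.1 went the other way, at 1.24 ± 0.38. The difference is thus large and negative in the 4 similar defensins, smaller in the transcription factors and of both signs in the rest, where that of PR3 is little more than its SE. On the log2(value + 1) scale the sizes also depend on the control, where PDF1.2C held 0 to 6 reads per library and PDF1.2B 1 to 5. Sizes are therefore not closely comparable between such low genes and abundant ones.

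Levels can be compared between the genes only per length. Per kilobase of spliced transcript, PDF1.3 reached 1567 normalised counts in Salt, PDF1.2A 1058, PDF1.2C 928 and PDF1.2B 331. In the control the means of these 4 stood in the same order, at 29.2, 17.96, 4.39 and 3.94. PDF1.1 was below each of them in Salt, at 224, and above each of them in the control, at 414. PR4 ran from 2168 in HL + HS to 7209 in HL, so the defensins in Salt stayed below PR4 in its lowest group. ERF1 did not pass 34.8 per kilobase, and ORA59 reached 136 in HS.

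The counts of these genes past the threshold were set beside all genes. A gene was called where its adjusted p was under 0.05 in a limma fit of all groups on log2(value + 1), with Benjamini-Hochberg adjustment over 21536 genes, and the 15 comparisons share the same 3 control libraries. Since the genes were selected on known levels, nothing is read from these counts. In Salt 8 were called higher and 1 lower, beside 40.5% and 39.1% of all tested genes. In PQ 4 were higher and 2 lower (all genes 40.2% and 39%), in Salt + PQ 8 and 0 (40.2% and 38.5%), and in HL 7 and 0 (38.5% and 37.5%). Together with HL, 6 were higher and 1 lower in Salt + HL (35.8% and 33.5%), 4 and 1 in PQ + HL (35.9% and 34.4%), and 6 and 2 in Salt + PQ + HL (19.6% and 20.9%). The groups labelled with heat but not high light also had more calls higher than lower. They held 7 and 0 in HS (37.2% and 34.2%), 7 and 0 in Salt + HS (35.6% and 33.9%), 6 and 1 in PQ + HS (42.1% and 42.1%), and 6 and 1 in Salt + PQ + HS (42.2% and 42.4%). Under both labels they held 4 and 2 in HL + HS (42.7% and 43.2%), 2 and 3 in Salt + HL + HS (42.9% and 43%), 1 and 2 in PQ + HL + HS (9.65% and 10.1%), and 5 and 3 in Salt + PQ + HL + HS (23.3% and 23.6%).

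Over the 135 pairs of a gene and a treatment, 81 were called higher (60%) and 19 lower, beside 35.1% and 34.4% of the pairs over all tested genes. PDF1.2C was higher in 13 of 15 treatments, PDF1.2B in 12, and PDF1.2A, PDF1.3 and ERF1 in 11 each. The lower calls fell on PDF1.1 (7), PR4 (4), ORA59 (4), PR3 (3) and PDF1.2A (1), and PDF1.1 had 0 calls higher. Without the 2 groups labelled HS whose heat genes were near the control, 64.1% of pairs were called higher in place of 60%. Without all 8 groups whose heat genes went against the label, it was 60.3%. Both alternatives were added after the data were seen. PQ + HL + HS, left out of both, had only 9.65% of all tested genes called higher. Shares of all tested genes over the remaining groups were not computed, so nothing is read from these changes. When the libraries were scaled to the same total, the median of all genes moved by up to -0.86 on the log2 scale (HL + HS), and by -0.65 to -0.82 in PQ + HS, Salt + PQ + HS and Salt + HL + HS. With that scaling 32 of the pairs were called lower. How many of all tested genes were called lower with it was not computed, so the 32 are not read as a result about these genes.

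**Figure D4:**
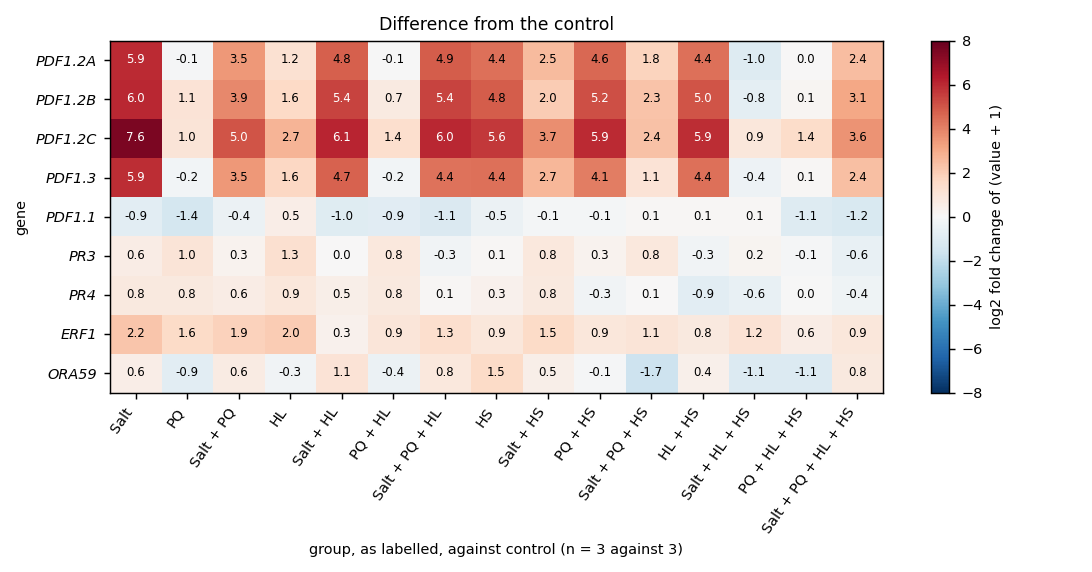
Log2 fold change of (value + 1) against the control for 9 genes (rows) in 15 labelled groups (columns), n = 3 against 3 libraries; colour and number give the value. PDF1.2A, PDF1.2B, PDF1.2C and PDF1.3 form a block with values of 5.92 to 7.56 in Salt, unlike PDF1.1 below them, which lies at -0.87 there.

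The genes that act on this output were described from 7 lists, which were also drawn up with earlier results of these data known. Of 28 regulators of PDF1.2 promoters, 24 were tested, and over their 360 pairs with a treatment 215 were called higher and 52 lower, beside 35.1% and 34.4% of pairs over all tested genes. In Salt 18 of 24 were higher and 4 lower, beside 40.5% and 39.1% of all tested genes. Their median log2 difference there was 0.73 (all genes 0.00). ERF6, an activator induced by oxidative stress, was at 362 ± 19.3 (SD, n = 3) in the control and 2581 ± 120.3 in HL + HS, a log2 difference of 2.83 ± 0.08, adjusted p = 2.87e-32 in limma. ERF104, a substrate of the kinase MPK6, was higher by 1.76 ± 0.06, adjusted p = 8.32e-29 in HS. ERF4 and ERF9, both repressors with an EAR motif, differed: ERF4 was higher in HL + HS (1.88 ± 0.06, adjusted p = 5.64e-29) and ERF9 lower (-0.67 ± 0.19, adjusted p = 0.00117). EIN3, the master transcription factor of ethylene, had its highest value in HL + HS (0.71 ± 0.03, adjusted p = 9.49e-28), which is less than the shift of -0.86 that the same-total scaling gave there. WRKY33, needed for resistance to Botrytis, was higher in 6 of the 8 groups with high means of the similar defensins. The exceptions were Salt + PQ + HL (0.10 ± 0.06, adjusted p = 0.166) and Salt + PQ + HL + HS (-0.07 ± 0.06, adjusted p = 0.355). It was also higher in PQ (1.77 ± 0.06, adjusted p = 1.46e-29), where PDF1.2A was at the control level. GRXC9, a glutaredoxin that represses ORA59, was higher in HL (1.71 ± 0.22, adjusted p = 2.45e-09) and lower in PQ + HL + HS (-0.67 ± 0.22, adjusted p = 0.0232).

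Jasmonate perception genes and the JAZ repressors, which jasmonate itself induces, had 143 of 225 pairs higher (63.6%) and 42 lower (18.7%). Over all tested genes the shares were 35.1% and 34.4%. COI1, the receptor subunit, was higher by 0.46 ± 0.03, adjusted p = 5.06e-17 in Salt. JAZ1 was at 903 ± 27.1 in the control and 2772 ± 70.3 in Salt, and its log2 difference there was 1.62 ± 0.05, adjusted p = 1.07e-30. JAZ10 was higher in Salt + PQ + HS (2.16 ± 0.11, adjusted p = 1.36e-22) and JAZ7 in HS (1.85 ± 0.18, adjusted p = 2.98e-12). In Salt + PQ + HL, where PDF1.2A was in the high tier, 4 of 15 of these genes were higher and 4 lower, near the 19.6% and 20.9% of all tested genes, and JAZ7 was at 0.18 ± 0.18, adjusted p = 0.46. MYC2 itself was listed at 0 to 1.69 normalised counts and was not tested. In TAIR10.1 its gene overlaps AT1G32630, which was listed at 74.2 to 177 normalised counts. Whether reads of the overlap were set aside was not tested, since the strand setting of the counting is not given in the sources used here.

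Outputs of the MYC branch had 43 of 105 pairs higher (41%) and 33 lower (31.4%), near the 35.1% and 34.4% of all tested genes. VSP2, an acid phosphatase made on wounding, was at 1112 ± 99.2 in the control and 8322 ± 904 in HL (2.90 ± 0.10, adjusted p = 1.38e-27), and VSP1 was higher there too (1.95 ± 0.10, adjusted p = 3.68e-22). In Salt + HL and Salt + PQ + HL, both in the high tier of PDF1.2A, VSP2 was lower (-0.30 ± 0.10, adjusted p = 0.0087 and -0.90 ± 0.10, adjusted p = 1.27e-09). In Salt, where PDF1.2A was highest, VSP2 was higher as well (1.79 ± 0.10, adjusted p = 6.96e-20).

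Other defensins and thionins had 22 of 90 pairs higher (24.4%) and 37 lower (41.1%), beside 35.1% and 34.4% over all tested genes. PDF1.4, a more distant member of the same family, was higher in PQ + HL (2.57 ± 0.09, adjusted p = 8.43e-28), where PDF1.2A was at the control level, and lower in Salt + PQ + HL (-0.68 ± 0.09, adjusted p = 2.47e-08), where PDF1.2A was high. PDF2.3, at 5149 ± 106 in the control, lay between -0.49 and 0.39 of it on the log2 scale in the 15 treatments. THI2.1, a thionin induced by jasmonate, was too low to be tested. The other pathogenesis-related genes, which include the salicylic acid markers, had 14 of 90 pairs higher (15.6%) and 42 lower (46.7%), beside the same shares of all genes. PR2, a glucanase, was at 77.9 ± 16.1 in the control and 13.3 ± 9.28 in Salt (-2.73 ± 0.58, adjusted p = 4.29e-05). PR1 was lower in Salt (-1.48 ± 0.53, adjusted p = 0.0103) and in HL + HS (-2.88 ± 0.53, adjusted p = 3.63e-06). PR5 was higher in Salt (0.61 ± 0.21, adjusted p = 0.00761) and lower in HS (-0.63 ± 0.21, adjusted p = 0.00705).

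Synthesis of jasmonate and ethylene was covered by 24 genes, of which 23 were tested. Of their 345 pairs 185 were higher (53.6%) and 92 lower (26.7%), beside 35.1% and 34.4% over all tested genes. LOX3 and OPR3, which act early and late in jasmonate synthesis, were higher in Salt (0.94 ± 0.08, adjusted p = 2.91e-14 and 0.63 ± 0.04, adjusted p = 1.54e-17). AOS, which commits the pathway, was lower there (-0.44 ± 0.04, adjusted p = 1.43e-13). ACS6, which makes the ethylene precursor, was at 622 ± 20.4 in the control and 3498 ± 115 in HL + HS (2.49 ± 0.06, adjusted p = 2.48e-33). Of the 150 pairs of ethylene perception genes 97 were higher (64.7%) and 24 lower (16%), beside the same shares of all genes. ETR2, a receptor that ethylene induces, was at 380 ± 46.4 in the control and 3857 ± 199 in PQ + HS (3.35 ± 0.06, adjusted p = 9.53e-40). EBF2, an F-box protein that degrades EIN3 and is an ethylene target, was higher in Salt (1.23 ± 0.04, adjusted p = 2.46e-29). Both were also higher in PQ (2.44 ± 0.06, adjusted p = 3.65e-34 and 0.82 ± 0.04, adjusted p = 7.53e-23), one of the groups in which PDF1.2A was at the control level.

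**Figure D5:**
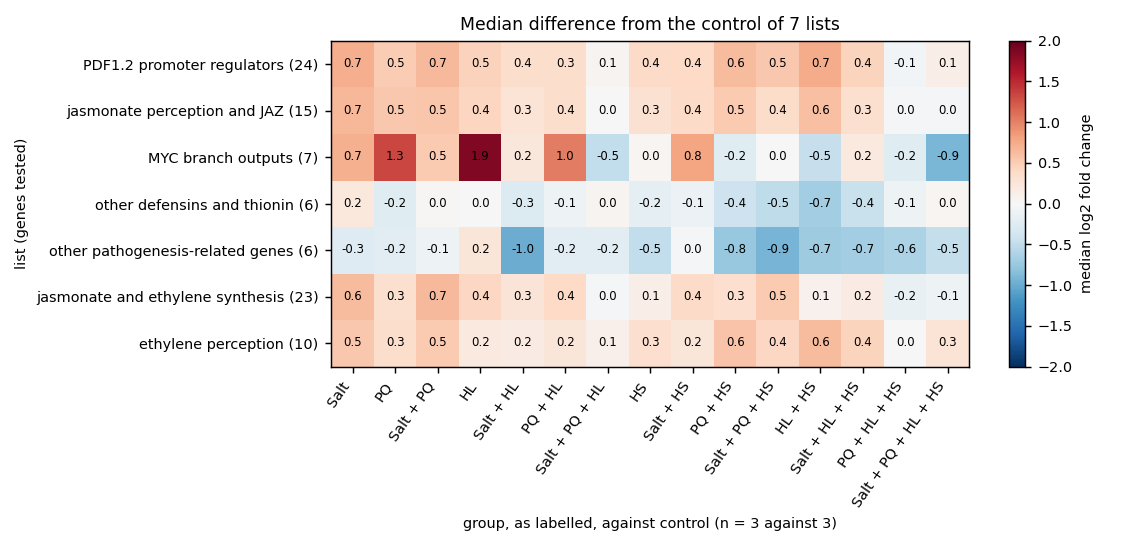
Median log2 fold change against the control of the tested genes of 7 lists (rows, number tested in brackets) in 15 labelled groups (columns), n = 3 against 3 libraries. MYC branch outputs have the highest median, 1.86 in HL, and other pathogenesis-related genes the lowest, -0.99 in Salt + HL.

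Among the other tested genes, those whose 16 log2 group means were most like the mean of PDF1.2A, PDF1.2B and PDF1.2C had Pearson correlations of 0.83 to 0.88, below those among the defensins themselves. The first was AT1G14640 (r = 0.88), at 327 normalised counts in the control and 447 in Salt, over a much smaller range than the defensins, and it was highest in Salt + PQ. AT4G15990 (r = 0.87) had a wider range and was highest in Salt + HL. It stood at 71.6 in the control, 547 in Salt, 360 in HS and 145 in Salt + HS. AT3G16670 (r = 0.86), also highest in Salt + HL, stood at 192 in the control, 709 in Salt, 722 in HS and 189 in Salt + HS. The remaining genes of the first 10 were AT3G05950, AT2G32160, AT1G79910, AT5G62360, AT1G67870, AT3G51410 and AT4G33280, and none of the 10 is in the lists above. For PDF1.3 the first 3 were AT1G14640 (0.89), AT3G51410 (0.86) and AT3G16670 (0.86).

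PR3 and PR4 had closer matches, as did ORA59. AT3G17520 (0.95), AT1G07985 (0.94) and AT5G01300 (0.94) were most like PR3, and AT1G78850 (0.98), NAC080 (0.96) and AT3G01350 (0.94) most like PR4. ORA59 was followed by AT1G22690 (0.96), AT1G77270 (0.94) and AACT1 (0.94), an acyltransferase that makes antifungal hydroxycinnamoyl agmatines, which stood at 51.9 in the control and 399 in HS. ERF1 was followed by AT3G11230 (0.89), AT3G22160 (0.86) and MPK5 (0.85), and PDF1.1 by UNE11 (0.80), NF-YA10 (0.79) and LSH4 (0.79). These correlations are over the same 16 groups, picked as the highest of all tested genes, and say nothing of shared control.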

How the data were processed

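The authors aligned single-end reads, checked with FastQC 0.11.7, to TAIR10 with STAR 2.4.0.1, counted reads on genes and normalised them with DESeq2 (version 1.20.0 in the submitters' processing notes). The deposited signal values are these counts divided by 1 size factor per library (0.594 to 1.34). All values came out as whole reads within 0.01 read, 67888254 to 87569857 per library. Precision is limited by 3 replicates and, for PDF1.2B and PDF1.2C, by few reads. Values were transformed to log2(value + 1), and 21536 genes with a mean of at least 10 were fitted in limma 3.58.1 (R 4.3.3) with 1 term per group and Benjamini-Hochberg adjustment. The script was tested on simulated data. edgeR 4.0.16 and DESeq2 1.42.0 on the recovered reads, other pseudocounts, scalings, filters and left-out replicates were alternatives. Sequences came from RefSeq TAIR10.1 (Biopython 1.88), and 32548 of 32833 gene IDs matched. The genes and lists were chosen with earlier results of these data known. Named were the 9 genes, fixed genes of each list, and those most correlated with them (10 for the PDF1.2 mean, 3 for each other gene); 1 of the fixed genes is not reported here. The p-values set a difference between groups against the spread of replicates within groups, estimated in 1 fit of all groups. Replicate numbers did not pair the samples (mean correlation of same-numbered deviations 0.00).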

Additional observations from a re-analysis of the deposited data

Results flagged for a closer look

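In 23 of 54 combinations of a gene and a pair of stress names, every library moved one way when 1 of the names was added to the control and every library moved the opposite way when it was added to the other name. The share of all tested genes that meets this rule was not computed, so the count does not set these genes apart. Each value below is the log2 difference with the second name present minus that without it. The difference was not tested, since the genes were chosen on these levels. Salt x HS met this in 7 genes: PDF1.2A (-7.84), PDF1.2B (-8.80), PDF1.2C (-9.49), PDF1.3 (-7.68), ERF1 (-1.62), ORA59 (-1.62) and, with the opposite sign, PDF1.1 (1.24). Salt x HL met it in PDF1.2C (-4.17), PDF1.3 (-2.81), PR3 (-1.86), PR4 (-1.18), ERF1 (-3.93) and ORA59 (0.78). PR3 (-1.34), PR4 (-0.99) and PDF1.1 (1.80) met it for Salt x PQ. PQ x HL did so in PR3 (-1.48), ERF1 (-2.64) and ORA59 (0.70), PQ x HS in PDF1.1 (1.75) and PR4 (-1.44), and HL x HS in PR3 (-1.70) and PR4 (-2.08). Several of these groups went against their labels in heat, light and salt genes, as given with the marker sums, and whether that enters the differences was not tested.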

How the results depend on the processing

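Of the 100 calls of a gene in a treatment (81 higher and 19 lower), 100 were kept with a replicate block, 99 in DESeq2, 93 in edgeR and 87 with libraries scaled to the same total. Leaving out the same replicate number from every treatment group, with all control libraries retained, kept 91 to 96. Leaving out 1 control library kept 89 to 98, the fewest without Control replicate 2. The same-total scaling raised the lower calls from 19 to 32 for the 9 genes, from 52 to 91 for the PDF1.2 regulators, from 42 to 78 for jasmonate perception and JAZ and from 24 to 41 for ethylene perception, and it turned PR3 in PQ + HS to -0.40 and in Salt + HL + HS to -0.58. Quantile normalisation turned PDF1.2B in PQ to -0.0815. The share of all tested genes called lower with the same-total scaling was not computed, so these rises do not set the lists apart. The cause of these changes was not tested. Replicate numbers did not pair the libraries, and 11 of 48 deviated most like a library of their own number. Depth limits PDF1.2B and PDF1.2C in the control (0 to 6 reads per library).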
